A study of Homo sapiens with 14 samples.

Results

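The genes described here are the enzymes other than SETD2 that write or remove methyl groups on lysine 36 of histone H3: the methyltransferases NSD1, NSD2 (listed as WHSC1), NSD3 (listed as WHSC1L1) and ASH1L, and the demethylases KDM2A, KDM2B and KDM4A. Each was found by a point on the human build hg19 inside its locus, and all transcripts of the locus that holds the point were taken. This gave 218 transcripts at 7 loci, of 204092 transcripts at 35671 loci in all. The study measured RNA of HEK293T, a human line derived from embryonic kidney that expresses the large T antigen of SV40, and of the same line with a SETD2 knockout. The labels list 3 RNA libraries of the wild type cells and 3 of the knockout cells, both grown without a named treatment. The sources used here give neither how the knockout was made nor whether its cells are a clone. ChIP samples for H3K36me3 and H4K16ac, 8 in all, were not analysed here.

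Lysine 36 of histone H3 carries mono-, di- or trimethylation. SETD2 places the trimethyl mark along transcribed genes, while the NSD enzymes and ASH1L place mono- and dimethylation over genes and between them. KDM2A and KDM2B remove mono- and dimethylation from this lysine through a JmjC domain, and KDM4A removes the trimethyl mark here and on lysine 9. Cells without SETD2 therefore keep enzymes that write and erase the lower methylation states.

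The values were FPKM, fragments per kilobase of transcript scaled by sequencing depth, deposited as a single value per transcript and genotype. Such values are scaled by length, which permits only a rough comparison between genes, and least of all for very short transcripts. Transcript lengths were not used here. No value for a single library was used here, so no spread between libraries could be computed and the depth of each library is unknown. The authors' test of each transcript, with its p-value and q-value, and the lower and upper bounds they deposited are therefore the only errors available. Each genotype stands in 2 tables, a table of tests and an FPKM tracking table that holds the bounds. The knockout values of these tables differ, and the wild type values differ to a lesser degree. Values come from the test table wherever no table is named. The files name transcripts by Ensembl identifier only, so markers of the line were not checked.

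The loci were placed by their hg19 positions, and RefSeq (GRCh38.p14) put the gene of each name on the same chromosome. NSD1 lay at chr5:176560026-176727216, NSD2 at chr4:1873151-1983934, ASH1L at chr1:155305059-155533775, KDM2A at chr11:66886740-67025558 and KDM2B at chr12:121837844-122031409. The spans of the first 4 of these loci matched the length of the RefSeq gene to within 1%, and that of KDM2B was 1.11 times as long. The NSD3 locus was 1.40 times as long as its RefSeq gene, and RefSeq places DDHD2 across its end. KDM4A lay at chr1:44115829-44396831, 5.08 times its RefSeq gene, and ST3GAL3 is its neighbour. Sums over the NSD3 and KDM4A loci, and to a lesser degree KDM2B, where RNF34 overlaps, hence include transcripts of other genes. RefSeq also places other genes inside the remaining loci. Among them are pseudogenes in NSD1, the small RNA gene SCARNA22 of 125 bases in NSD2, and small nucleolar RNA genes in KDM2A and ASH1L. Whether transcripts of these genes enter the sums is not given in the files. Which exons or untranslated regions a transcript holds is not given in the files.

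Several loci also have more than 1 start. RefSeq lists 2 starts for KDM2A, 120.8 kb apart, and 4 for KDM2B, of which the first and the last lie 113.6 kb apart. Transcripts from the later starts of genes of this family can lack the JmjC domain while keeping the CXXC zinc finger, which binds unmethylated CG. The 250 bases before the first and the last start are shown because the levels of both loci are split among many transcripts, and because CG is what the encoded zinc fingers bind. They are from RefSeq on GRCh38.p14, 5′ to 3′ on the strand of the gene, with each CG in capitals.
KDM2A first start (chr11:67119013-67119262, plus strand): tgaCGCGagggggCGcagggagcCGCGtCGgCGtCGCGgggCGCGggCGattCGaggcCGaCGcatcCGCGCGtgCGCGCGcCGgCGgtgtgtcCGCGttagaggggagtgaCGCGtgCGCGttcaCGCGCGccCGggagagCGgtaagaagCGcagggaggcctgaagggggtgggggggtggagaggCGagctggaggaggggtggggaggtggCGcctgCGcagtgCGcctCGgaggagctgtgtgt
KDM2A last start (chr11:67239764-67240013, plus strand): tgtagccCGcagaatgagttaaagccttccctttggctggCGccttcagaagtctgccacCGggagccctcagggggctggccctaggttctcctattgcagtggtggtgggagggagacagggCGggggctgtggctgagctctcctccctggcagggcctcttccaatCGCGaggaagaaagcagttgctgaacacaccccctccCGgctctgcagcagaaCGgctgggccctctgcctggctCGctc
KDM2B first start (chr12:121581024-121581273, minus strand): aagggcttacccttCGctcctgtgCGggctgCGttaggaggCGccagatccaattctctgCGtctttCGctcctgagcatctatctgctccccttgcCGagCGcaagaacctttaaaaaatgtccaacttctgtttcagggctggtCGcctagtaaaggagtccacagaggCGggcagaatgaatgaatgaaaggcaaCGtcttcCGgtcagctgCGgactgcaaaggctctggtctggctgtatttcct
KDM2B last start (chr12:121467379-121467628, minus strand): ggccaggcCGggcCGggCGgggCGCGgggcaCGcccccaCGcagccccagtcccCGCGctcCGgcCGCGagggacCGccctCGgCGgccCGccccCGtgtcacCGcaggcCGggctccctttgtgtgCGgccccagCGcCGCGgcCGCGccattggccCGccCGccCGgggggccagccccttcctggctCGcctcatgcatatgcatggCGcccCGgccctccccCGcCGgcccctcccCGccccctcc
The first start of KDM2A had 40 CG and its last start 9. For the outermost starts of KDM2B the order was the other way, with 13 CG before the first start and 34 before the last. The KDM2B starts between these had 32 and 11 CG, and both lie far nearer to the first start than to the last. The order thus depends on which starts are taken. Among 35116 such windows of all RefSeq genes in the table, the median was 11 CG, and 93.9% held at least 1, counted on the strand shown (CG reads the same on both strands). The first KDM2A window held more CG than 97.8% of all windows, and the last KDM2B window more than 93.2%. Windows were found for 6 of the 7 genes. The files do not tie transcripts to starts, so no level per start is given.

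No transcript of these loci passed the authors' test. Of the 218 transcripts, 120 were tested by the authors, and 0 of these had a q-value at or under 0.05 in the authors' deposited table, beside 0.255% of the 85852 transcripts tested in all. At an unadjusted p of 0.05 in the same table, again 0 of the 120 passed, beside 2.39% of all tested. The lowest p among the 120 was 0.0930 in the authors' deposited table and the lowest q 0.991. With a q this high the data do not show a difference, and they do not show that the levels were equal. The sources used here do not state which spread the p-values rest on. Nothing in the labels ties the libraries to separate cultures, so any spread between them may be technical. In RNA of bulk cells, fewer cells that express a gene and less of its RNA per cell cannot be told apart.

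Of the 120 tested transcripts, 101 had a value above 0 in both genotypes. Of these, 61 were higher and 40 lower in the knockout, or 60.4% higher, beside 55.0% over all tested transcripts with such values. Their median log2 fold, knockout over wild type, was 0.29, beside 0.11 over all. Of all 218 transcripts, 55 were listed at 0 in both genotypes, 39 in the knockout alone and 9 in wild type cells alone. Over all 204092 transcripts these counts were 76911, 30122 and 7480, so zeros in the knockout alone were the more frequent there too. At least 1 FPKM in a genotype was listed for 83 of the 218, and for 60487 of the 204092.

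**Figure D1:**
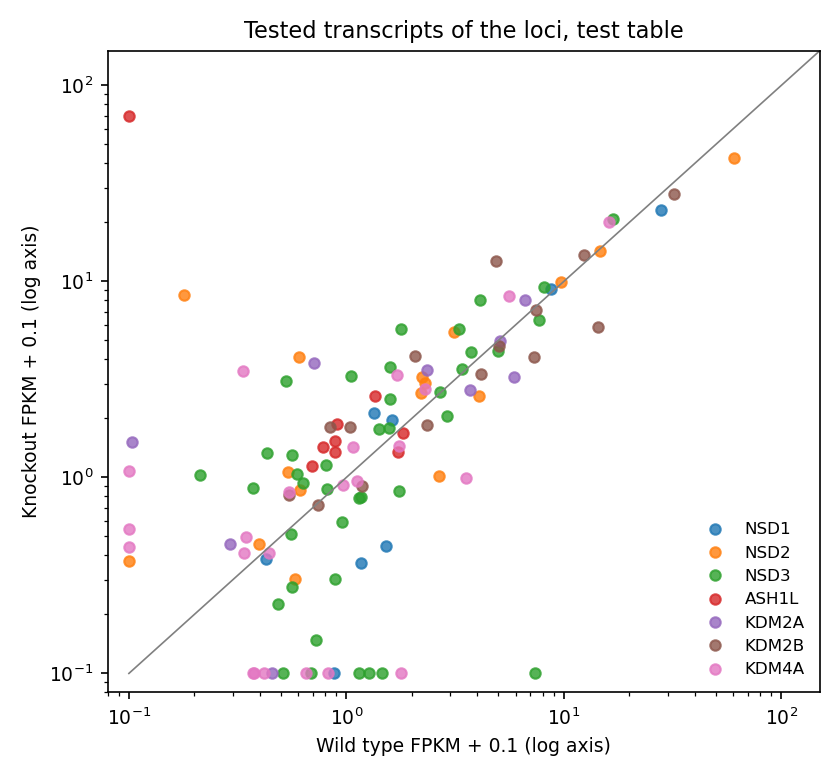
FPKM + 0.1 of the 120 tested transcripts in the knockout (vertical log axis) against the wild type (horizontal log axis), coloured by locus, with the line of equal values in gray. The point farthest from the line is that of ASH1L at the upper left, at 69.4 FPKM in knockout cells and 0 in wild type cells, while NSD2 ENST00000511904 (8.43 and 0.0790 FPKM) and NSD3 ENST00000528148 (0 and 7.29 FPKM) also stand far from it.

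The level of each locus was taken as the sum over its transcripts. NSD2, NSD3 and KDM2B were the highest in wild type cells, at 103 FPKM, 89.5 FPKM and 95.7 FPKM. NSD1 stood at 43.3 FPKM and KDM4A at 39.5 FPKM, KDM2A at 24.7 FPKM and ASH1L at 8.45 FPKM. NSD2, KDM2B and NSD3 differed from each other by less than the width of the intervals of their highest transcripts, so their order is not settled, and neither is that of NSD1 and KDM4A. In the knockout the sums were 99.5 FPKM for NSD2, 99.1 FPKM for NSD3, 90.1 FPKM for KDM2B, 81.6 FPKM for ASH1L, 46.9 FPKM for KDM4A, 36.9 FPKM for NSD1 and 27.8 FPKM for KDM2A. ASH1L was thus the lowest of the 7 loci in wild type cells but not in knockout cells, and this rests on a single transcript described below.

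**Figure D2:**
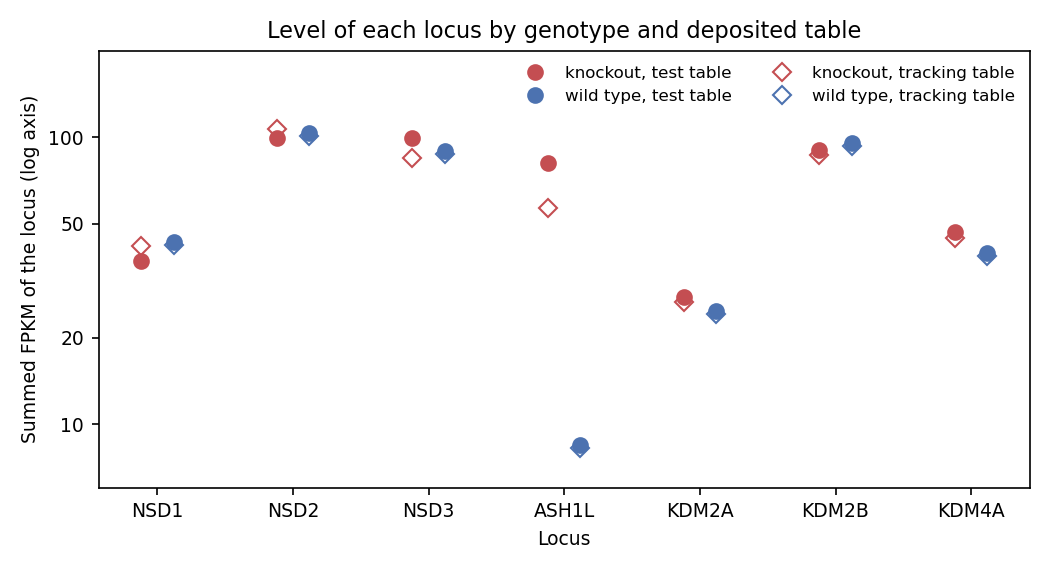
Summed FPKM of each locus (log axis) in the knockout (red) and the wild type (blue), from the test table (filled circles) and the tracking table (open diamonds). The genotypes lie close together at 6 loci, while ASH1L stands at 81.6 FPKM in knockout cells and 8.45 FPKM in wild type cells, and at 56.5 and 8.24 FPKM in the tracking table.

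Between genotypes, 6 of the 7 sums lay within 1.2-fold of each other. In the knockout NSD1 was 1.17-fold lower, NSD2 1.04-fold lower and KDM2B 1.06-fold lower, and NSD3 was 1.11-fold, KDM2A 1.12-fold and KDM4A 1.19-fold higher. Across the 12467 loci with 1 FPKM or more in a genotype, the median log2 fold was 0.06, and these 6 loci lay between the 26.0 percentile (NSD1) and the 67.7 percentile (KDM4A) of all loci. Of the 7 sums, 1 differed at least 1.5-fold, while 24.2% of all these loci did. In the tracking table NSD1 was 1.013-fold lower, NSD2 1.06-fold higher and NSD3 1.03-fold lower, so the direction at NSD2 and NSD3 differed between the deposited tables. That of NSD1 and KDM2B changed over transcripts with an interval above 0 in a genotype, to log2 folds of 0.07 and 0.03. The transcripts kept were 1 at NSD1, with 9.02 of the 36.9 FPKM in knockout cells, and 2 at KDM2B. The direction of KDM2A changed for its anchor transcript alone, to a log2 fold of -0.42. The chromosomes of NSD1, NSD2 and KDM2B had median log2 folds of 0.17 over 572 loci, 0.18 over 493 loci and 0.12 over 610 loci. These lay above the log2 folds of the loci themselves, which were -0.23, -0.05 and -0.09. The other member loci lay above the medians of their chromosomes. In the tracking table the medians for NSD1, NSD2 and KDM2B were 0.13, 0.12 and 0.10. Whether a shift of the chromosome bears on any of these loci was not tested.

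**Figure D3:**
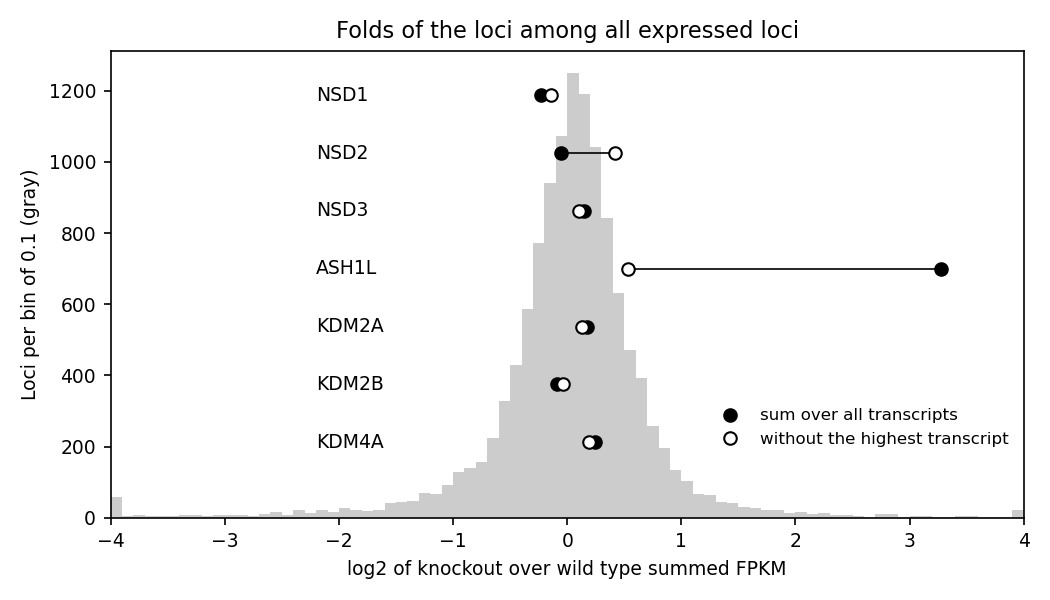
log2 fold of knockout over wild type summed FPKM of each locus (filled circles) and without its highest transcript (open circles), over the histogram of 12467 loci in gray, with folds beyond 4 put in the end bins; the height of a circle has no meaning. All loci lie inside the bulk of the histogram once the highest transcript is left out, and ASH1L goes from 3.27 to 0.53.

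NSD1, NSD2 and NSD3 are related enzymes with a SET domain, PWWP domains and PHD fingers. NSD1 is the gene of Sotos syndrome, an overgrowth disorder, and NSD2 lies in the region lost in Wolf-Hirschhorn syndrome. At NSD1, ENST00000354179 stood at 9.02 FPKM in knockout cells and 8.59 FPKM in wild type cells (the authors' deposited table, p = 0.789). Its bounds in the tracking table were 5.14 to 11.7 FPKM around 8.43 in knockout cells and 4.83 to 11.9 FPKM around 8.39 in wild type cells. These intervals nearly coincide, and this was the only NSD1 transcript with both intervals above 0. The transcript with the highest value, ENST00000604252, stood at 22.9 and 27.8 FPKM, with intervals that began at 0 and reached 57.4 and 55.7 FPKM in the tracking table. The transcript of at least 1 FPKM that differed most on the log2(FPKM + 1) scale, ENST00000511258, stood at 0.346 FPKM in knockout cells and 1.42 FPKM in wild type cells (the authors' deposited table, p = 0.420). The transcript that anchors the locus, ENST00000439151, was listed at 0 in knockout cells and at 7.70e-05 FPKM in wild type cells. Other transcripts thus carry the sum of the NSD1 locus, and the files do not say whether all of them belong to NSD1.

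At NSD2, ENST00000382891 stood at 14.2 FPKM in knockout cells and 14.5 FPKM in wild type cells (the authors' deposited table, p = 0.910). Its intervals in the tracking table were 7.44 to 18.99 FPKM and 7.47 to 20.9 FPKM, again almost the same. The anchor ENST00000382895 was listed at 0 in both genotypes. The highest value at NSD2 belonged to ENST00000503991, with 42.4 FPKM in knockout cells and 60.6 FPKM in wild type cells, but its upper bounds were 488 and 519 FPKM, so this transcript is hardly measured. Without it the NSD2 sum was 57.1 FPKM in knockout cells and 42.6 FPKM in wild type cells, 1.34-fold higher in place of 1.04-fold lower. The largest difference at the locus was that of ENST00000511904, at 8.43 FPKM in knockout cells and 0.0790 FPKM in wild type cells (the authors' deposited table, p = 0.274). Its intervals in the tracking table, 0 to 25.8 FPKM and 0 to 1.74 FPKM, overlapped.

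NSD3 encodes a long form with the SET domain and a short form without it. The anchor ENST00000317025 stood at 2.62 FPKM in knockout cells and 2.60 FPKM in wild type cells (the authors' deposited table, p = 0.986), and in the tracking table at 2.19 FPKM (0.545 to 3.84) and 2.54 FPKM (0.832 to 4.25). The levels were thus almost equal in the test table and lower in the knockout in the tracking table, with intervals that overlap over most of their range. The highest of the 54 transcripts of the locus, ENST00000529642, held only 21.0% of the sum in knockout cells and 18.7% in wild type cells, at 20.8 and 16.7 FPKM. The transcript ENST00000528148 was listed at 0 in knockout cells and at 7.29 FPKM in wild type cells (the authors' deposited table, p = 0.0962). The tracking table gave 2.13 FPKM for the knockout with an upper bound of 18.5 FPKM, and the wild type bound reached 40.9 FPKM.

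ASH1L, the human relative of the fly trithorax-group protein Ash1, dimethylates lysine 36. Its locus sum of 81.6 FPKM in the knockout against 8.45 FPKM in wild type cells, 9.66-fold higher, stood at the 99.7 percentile of all loci. Of the knockout sum, 85.0% came from ENST00000384987, at 69.4 FPKM in knockout cells and listed at 0 in wild type cells. The authors tested this transcript and did not call it (p = 0.137 and q = 0.991 in the authors' deposited table). In the tracking table it stood at 45.3 FPKM with an interval of 36.2 to 54.3 FPKM, which leaves out the test-table value, and at 0 with an interval of 0 to 0 in wild type cells. The lowest ratio of tracking to test value among tested knockout transcripts was 0.65 at every member locus, and ENST00000384987 stood at 0.652. Of the 120 tested transcripts it was the single transcript whose intervals did not overlap, beside 0.632% of all tested, and an interval of 0 to 0 is kept apart by any bound above 0. RefSeq places short RNA genes inside ASH1L, namely the microRNA gene MIR555 of 96 bases, a small nucleolar RNA of 105 bases and 2 U6 pseudogenes. The files do not say whether ENST00000384987 is any of these.

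Without that transcript the ASH1L sum was 12.2 FPKM in knockout cells and 8.45 FPKM in wild type cells, 1.45-fold higher and at the 85.0 percentile, and 1.36-fold higher in the tracking table. The anchor ENST00000392403 stood at 2.51 FPKM in knockout cells and 1.25 FPKM in wild type cells, 2.01-fold higher (the authors' deposited table, p = 0.199). In the tracking table it was at 1.64 FPKM (0 to 3.86) and 1.22 FPKM (0 to 2.86), a smaller difference with intervals that overlap over most of their range. Another transcript, ENST00000368346, was lower in the knockout, at 1.25 against 1.62 FPKM. Of the 8 tested ASH1L transcripts above 0 in both genotypes, 6 were higher and 2 lower in the knockout. All 8 were under 3 FPKM, and 0 had intervals above 0 in both genotypes.

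**Figure D4:**
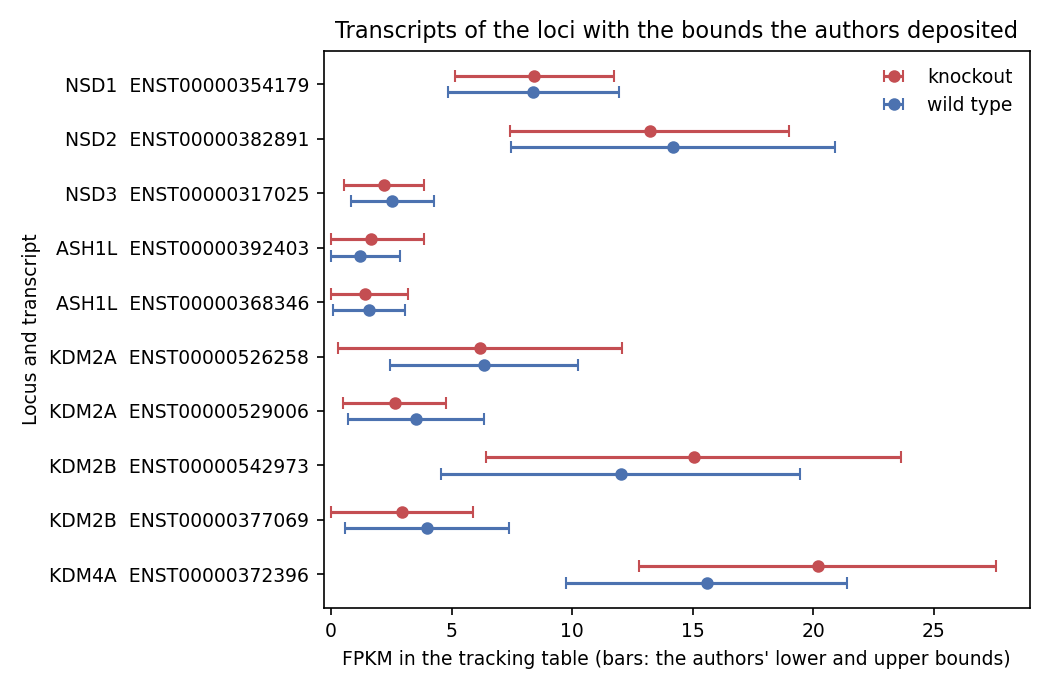
Tracking-table FPKM in the knockout (red) and the wild type (blue) of the 8 transcripts whose intervals lie above 0 in both genotypes, plus 2 ASH1L transcripts, with bars from the lower to the upper bound the authors deposited. The red and blue bars overlap in every pair, and KDM4A ENST00000372396 has the highest values, 20.2 and 15.6 FPKM.

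KDM2A and KDM2B are JmjC demethylases that bind CG-rich DNA, and KDM2B brings a variant Polycomb repressive complex to it. At KDM2A, ENST00000526258 was the highest transcript, at 7.93 FPKM in knockout cells and 6.50 FPKM in wild type cells (the authors' deposited table, p = 0.505). The tracking table gave 6.18 and 6.34 FPKM, so the small difference did not keep its direction. The anchor ENST00000529006 stood at 2.70 FPKM in knockout cells and 3.61 FPKM in wild type cells, 1.34-fold lower (the authors' deposited table, p = 0.409), with intervals of 0.492 to 4.79 FPKM and 0.696 to 6.36 FPKM. Both transcripts had intervals above 0 in both genotypes. They differed in opposite directions in the test table, while both were lower in the knockout in the tracking table, where the anchor stood at 2.64 and 3.53 FPKM. ENST00000525041 stood at 3.72 FPKM in knockout cells and 0.613 FPKM in wild type cells (the authors' deposited table, p = 0.552), with lower bounds of 0 in both.

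At KDM2B, ENST00000542973 stood at 13.5 FPKM in knockout cells and 12.3 FPKM in wild type cells (the authors' deposited table, p = 0.727), and ENST00000377069 at 3.27 and 4.07 FPKM (p = 0.565 in the same table). These were the KDM2B transcripts with intervals above 0 in both genotypes, and they differed in opposite directions in both tables, at 15.03 against 12.01 FPKM and 2.95 against 3.97 FPKM in the tracking table. The highest transcript, ENST00000555076, stood at 27.8 and 31.9 FPKM with lower bounds of 0. The largest difference on the log2(FPKM + 1) scale was that of ENST00000556562, at 12.5 FPKM in knockout cells and 4.77 FPKM in wild type cells (the authors' deposited table, p = 0.467), while ENST00000536036 stood at 5.75 and 14.3 FPKM. The anchor ENST00000377071 was listed at 0 in knockout cells and at 0.129 FPKM in wild type cells.

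KDM4A removes the trimethyl mark that SETD2 places. Its anchor ENST00000372396 was the highest transcript of the locus and, of the 8 transcripts with both intervals above 0, had the narrowest intervals relative to its values, at 19.98 FPKM in knockout cells and 15.95 FPKM in wild type cells. It was 1.25-fold higher in the knockout, with p = 0.167 in the authors' deposited table. Its intervals in the tracking table, 12.8 to 27.6 FPKM around 20.2 and 9.76 to 21.4 FPKM around 15.6, overlapped. This transcript held 42.7% of the locus sum in knockout cells and 40.4% in wild type cells. The largest difference was that of ENST00000335430, at 3.40 FPKM in knockout cells and 0.234 FPKM in wild type cells (the authors' deposited table, p = 0.468), and the files do not say to which gene of this wide locus the transcript belongs.

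Over the 8 transcripts with both intervals above 0, the genotypes differed by a median of 1.16-fold in either direction, and the largest difference was 1.34-fold. In the tracking table, which gave the intervals, the median was 1.21-fold and the largest difference 1.35-fold. Of the 8, 5 were higher and 3 lower in the knockout in the test table, but 3 were higher and 5 lower in the tracking table, so no common direction was seen. Over all 12324 tested transcripts of this kind the median was 1.20-fold in the test table and 1.19-fold in the tracking table, and 49.6% and 54.0% were higher. The authors called 1.18% of them against 0 of the 8. ASH1L has no transcript among the 8.

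**Figure D5:**
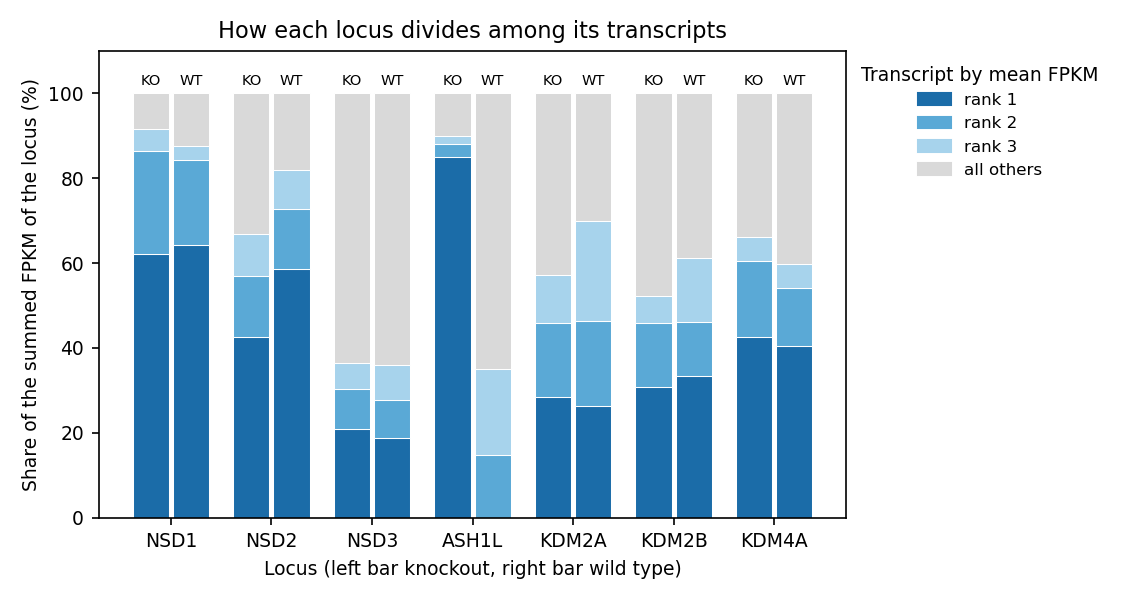
Share of the summed FPKM of each locus (%) held by its 3 highest transcripts by mean FPKM, each alone, and by all others, with the knockout as the left bar and the wild type as the right bar. At ASH1L the highest transcript holds 85.0% in knockout cells and 0% in wild type cells, while at the other loci its share differs by at most 16.1 percentage points (NSD2).

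Other genes around this mark were taken from a list of 15, located by hg19 points known for the build and kept where the span of the locus was within 25% of the RefSeq gene. This kept 10 loci with 66 tested transcripts, of which 0 were called by the authors at a q of 0.05 in either direction, beside the same 0.255%. Of the 10 sums, 5 were higher and 5 lower in the knockout, with a median log2 fold of 0.08. SETD2, the knocked-out gene, had a sum of 5.64 FPKM in knockout cells and 13.7 FPKM in wild type cells, 2.42-fold lower and at the 3.90 percentile of all loci. The lowest p of its transcripts was 0.0379 in the authors' deposited table. SETD2 RNA was thus still listed in the knockout cells, and RNA alone does not show whether the protein is lost.

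The other demethylases of the KDM4 family that could be placed stood close to equal. KDM4B had 12.6 FPKM in knockout cells and 12.8 FPKM in wild type cells, KDM4C 103 and 112 FPKM, and KDM4D 2.41 and 2.70 FPKM. The highest KDM4B transcript, ENST00000159111, stood at 3.73 and 6.27 FPKM with p = 0.0442 in the authors' deposited table, which did not pass the q-value. KDM8, a JmjC protein with reported activity on lysine 36, had 12.3 FPKM in knockout cells and 7.70 FPKM in wild type cells, 1.60-fold higher. Its log2 fold was 0.68 in the test table and 0.85 in the tracking table, with an error of 0.79 on the same scale. The SET-domain proteins SMYD2 and SETD3 had 19.8 against 17.4 FPKM and 23.4 against 19.3 FPKM. PRDM9, a methyltransferase of meiotic cells, was under 0.2 FPKM in both genotypes.

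BCOR and RNF2 are partners of KDM2B in the variant Polycomb complex. BCOR had 66.4 FPKM in knockout cells and 49.5 FPKM in wild type cells, 1.34-fold higher. This was a log2 fold of 0.42 with an error of 0.76 on the same scale. The lowest p of the BCOR transcripts was 0.324 in the authors' deposited table. RNF2 had 29.5 FPKM in knockout cells and 17.8 FPKM in wild type cells, 1.66-fold higher in the test table and 1.35-fold higher in the tracking table. The highest RNF2 transcript, ENST00000453650, had intervals of 5.51 to 24.7 FPKM and 0.806 to 21.7 FPKM, which overlapped. KDM2B itself was 1.06-fold lower, a log2 fold of -0.09 with an error of 0.54 on the same scale. Its direction turned to 0.03 over the 2 transcripts with an interval above 0 in a genotype. No transcript of these 3 genes was called.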

How the data were processed

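Libraries came from rRNA-depleted total RNA of both genotypes, per the labels' protocols, except that a ChIP protocol stands in the label of a wild type RNA library. The submitters' processing notes name Bowtie 1.1.2, TopHat and Cuffdiff, and the build hg19, without roles. No source used here gives the annotation. The authors deposited FPKM per transcript and group with bounds whose level is not given, and a table of tests per transcript that holds a log2 fold (wild type over knockout), a test statistic (a score, not used), a p-value and a q-value, per the file headers. Folds were recomputed here from the FPKM with positive values for higher levels in knockout cells. The tables named for genes and transcripts were identical, and 0 of the 204092 identifiers matched a table of gene names.

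FPKM were summed per locus, and a locus was taken as expressed from 1 FPKM in a genotype and above 0 in both. Loci with failed estimates (50 transcripts) were left out. A transcript was called at the authors' q-value of 0.05. No test between libraries could be made, and leaving out a replicate was not possible. The error of a sum was used to judge alternatives and is printed for KDM2B, NSD2, KDM8 and BCOR. It took the distance from the value to the upper bound as 2 SD, which is assumed. These were added in quadrature, as if the transcripts of a locus varied independently. The members, lists and alternatives were chosen with earlier results of these data known. Transcripts named per locus are the anchor, the highest by mean FPKM and, from 1 FPKM, the one that differed most by log2((knockout FPKM + 1)/(wild type FPKM + 1)). Transcripts with both intervals above 0, and ENST00000368346, ENST00000536036 and those named at SETD2, KDM4B and RNF2, were chosen after their values were seen. Sums were tested on simulated loci. Computations used Python 3.11.15, pandas 2.3.3 and numpy 2.4.6, and figures matplotlib 3.10.9.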

Additional observations from a re-analysis of the deposited data

Results flagged for a closer look

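The tracking table listed a knockout value above 0 for 14 of the 218 transcripts that the test table listed at 0, and a wild type value for 2. Over all 204092 transcripts the numbers were 6720 and 194. Of the 14, 8 reached at least 0.5 FPKM in the tracking table. At NSD3 these were ENST00000528148 at 2.13 FPKM, ENST00000526370 at 0.944 FPKM and ENST00000526071 at 0.543 FPKM. At KDM4A they were ENST00000351035 at 0.822 FPKM, ENST00000361400 at 0.768 FPKM and ENST00000461375 at 0.552 FPKM. KDM2A had ENST00000529124 at 0.675 FPKM and NSD1 had ENST00000508896 at 0.635 FPKM. The lower bound of each of these 8 was 0.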

How the results depend on the processing

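No paired analysis was possible because the files hold a single value per transcript and genotype, which carries no replicate number, and for the same reason no replicate could be left out. Of 73 alternative log2 folds of the 7 loci, 69 moved by less than the error of the sum and 4 moved by more, all at ASH1L. Its log2 fold of 3.27 became 1.007 for the anchor transcript alone and 0.53 without the highest transcript. It was 0.44 without that transcript in the tracking table, and 5.45 over transcripts with an interval above 0 in a genotype. The last 3 of these settings were chosen after seeing the data. ENST00000384987 passed the filter on intervals through the knockout alone, where it is high, so the 5.45 is no support for a rise. Within their errors, 5 of the other 6 loci, and KDM4C of the pathway list, changed direction in an alternative. NSD2 went from -0.05 to 0.08 in the tracking table, 0.42 without its highest transcript and 0.40 without it in the tracking table. It was 0.16 over transcripts with an interval above 0. Of these, ENST00000482415 (5.42 against 3.04 FPKM) passed through the knockout alone, where it is higher, so the 0.16 cannot decide the direction. NSD3 went from 0.15 to -0.05 in the tracking table, with and without its highest transcript. Over transcripts with an interval above 0, NSD1 went from -0.23 to 0.07 (1 transcript) and KDM2B from -0.09 to 0.03 (2 transcripts). KDM2A went from 0.17 to -0.42 for its anchor alone, and KDM4C from -0.12 to 0.01 in the tracking table. The error at NSD2 was 4.44 on the log2 scale, so its sum could not have moved by more than the error in the alternatives run. The anchor alone gave no fold at NSD1, NSD2 and KDM2B, where it was listed at 0. The 20 alternatives for the pathway list and the 14 for shares stayed within their errors. Centring lowered every log2 fold by 0.06 and rescaling raised it by 0.014, less than the error of any locus. Those alternatives could therefore not have moved by more than the error. The wild type shares were almost the same in both tables, so they too could hardly move. The count of 219 calls over all transcripts became 0 at a q-value of 0.01, and the count of 0 at the 7 loci was 0 under every threshold and filter run. The depth of the libraries is unknown, and most intervals of these loci begin at 0, which limits what differences could be seen.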
